A study of Mus musculus with 12 samples.

Results

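The effect of losing Abhd2 on the lateral choroid plexus of female mice in proestrus was read from 6 of the 12 RNA sequencing libraries of the series, 3 hoz and 3 wt. Libraries were chosen by their sex and genotype labels. The wt females are Abhd2+/+ and the hoz females Abhd2-/-, the strain label of both is C57BL6, and the breeding notes say that C57Bl/6N mice and knockouts of a similar background were used. All were adults of unstated age, housed with 14 hours of light and 10 hours of darkness, killed with CO2 near 10 in the morning in proestrus. The sources used here do not say how the knockout allele was made, whether the groups were littermates or how many animals a library holds, so p-values measure the spread between these libraries, which may be technical. Every gene of the deposited table was eligible: 13857 of 35275 had enough reads to be tested. The 6 male libraries, wt and hoz, entered the fit for the spread of each gene and are shown for reference. Libraries of a group are numbered in the order listed, and the numbers pair nothing.

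The choroid plexus is the secretory epithelium of the brain ventricles. Its cells pump ions and water to make cerebrospinal fluid, carry hormones and vitamins between blood and brain, and rest on a stroma of leaky vessels, pericytes, fibroblasts and macrophages. ABHD2, a serine hydrolase with the alpha/beta fold, cleaves monoacylglycerols, among them the endocannabinoid 2-arachidonoylglycerol, and in human sperm is activated by progesterone. Proestrus is the phase of the cycle before ovulation, when estradiol and then progesterone rise.

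Summed reads were 8011557, 14907449 and 32154836 in wt females 1 to 3 and 16000137, 7238147 and 5975707 in hoz females 1 to 3. A gene with 3 reads stood at 0.0932 to 0.376 CPM (counts relative to the TMM-scaled library size) in the wt females and at 0.189 to 0.504 CPM in the hoz females. The epithelial markers were abundant in all 6 libraries, at 91273 to 108510 CPM for Ttr (transthyretin), 4518 to 5343 CPM for Kl (klotho) and 1092 to 1196 CPM for Folr1 (folate receptor). The T cell marker Cd3e had 2 reads over the 6 libraries. The other cell types were present at low levels, and 4 libraries stood apart by them or by other genes: wt female 3 was high in interferon and antigen presentation genes, hoz female 1 was high in neuron genes, hoz female 2 was low in stromal and macrophage genes, and hoz female 3 was high in some clock genes. In these bulk samples, fewer cells of a type and less RNA per cell cannot be told apart.

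Abhd2 (ENSMUSG00000039202), which lies on the plus strand of chromosome 7 from 79273201 to 79365508 in mm10, was nearly lost from each hoz library. Wt libraries held 2364, 2433 and 2430 CPM, whereas hoz libraries held 54.4, 49.6 and 60.8 CPM. The groups were far apart, and Abhd2 fell by 5.46 log2 units (SE 0.101). The adjusted p was 1.36e-15 in the edgeR quasi-likelihood fit, adjusted by Benjamini and Hochberg over all genes tested. Levels per length, in the deposited FPKM values, were compared over 35 genes of its superfamily, of endocannabinoid metabolism and of the cannabinoid receptors. Abhd2 was the most abundant of them in the wt females, with 352 FPKM on average, and ranked 21 in the hoz females with 7.94 FPKM. Next in the wt females came Gde1, a glycerophosphodiesterase, at 282 FPKM, Ephx1, the microsomal epoxide hydrolase, at 265 FPKM, and Ndrg2, a catalytically silent family member, at 246 FPKM. None of the 29 other tested genes of the list was called by edgeR. In this list, 2 were higher in every hoz library than in every wt library (6.90%, beside 7.64% of all genes), and 0 were lower in every one (beside 6.03%). The higher ones were Abhd3 (106, 105 and 103 against 96.0, 88.6 and 93.8 CPM, log2 fold change 0.18, SE 0.0626) and Ndrg2 (log2 fold change 0.14, SE 0.0599). The median over the list was a log2 fold change of -0.02, beside 0.0020 over all genes tested.

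Ddx17 was the other gene called. It encodes a DEAD box RNA helicase that acts in splicing, microRNA processing and nuclear receptor transcription. Ddx17 (ENSMUSG00000055065, chromosome 15, 79527707 to 79546741, minus strand) stood at 199.8, 215 and 209 CPM in the wt females and at 152, 153 and 156 CPM in the hoz females. The groups did not overlap, and the hoz values lay within 4 CPM of each other. Ddx17 fell by 0.44 log2 units (SE 0.0565, edgeR adjusted p = 0.00493). Its span overlaps Kdelr3 on the opposite strand, which stood at 3.64, 3.71 and 3.36 CPM in the wt females and at 3.40, 3.90 and 2.85 CPM in the hoz females. Leaving out wt female 2 ended the call (adjusted p = 0.0838), as did the fits without hoz female 1 (0.0752) or without hoz female 2 (0.0750), and without wt female 3 and hoz female 2 together (0.430), while the log2 fold change stayed between -0.47 and -0.41 in all 12 alternatives.

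In the males Ddx17 did not follow the females. Wt males had 213, 204 and 221 CPM and hoz males 226, 221 and 236 CPM. The difference between the female and the male genotype effect was -0.54 on the log2 scale (SE 0.0783, edgeR adjusted p = 0.0490), and it was the 1 interaction called among 13857 genes (0.00722%), with 505 at an unadjusted p under 0.05. Each of the 6 fits without 1 female library lost this call, with adjusted p of 0.104 to 0.360. Of 36 DEAD box genes tested, Ddx17 included, 3 were lower in every hoz library (8.33%, beside 6.03% of all genes). The others were Ddx55 (log2 fold change -0.30, SE 0.118) and Ddx58 (-0.15, SE 0.0929), the RNA sensor RIG-I. In the same list 2 were higher in every hoz library (5.56%, beside 7.64% of all genes), and the list median was -0.02.

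**Figure D1:**
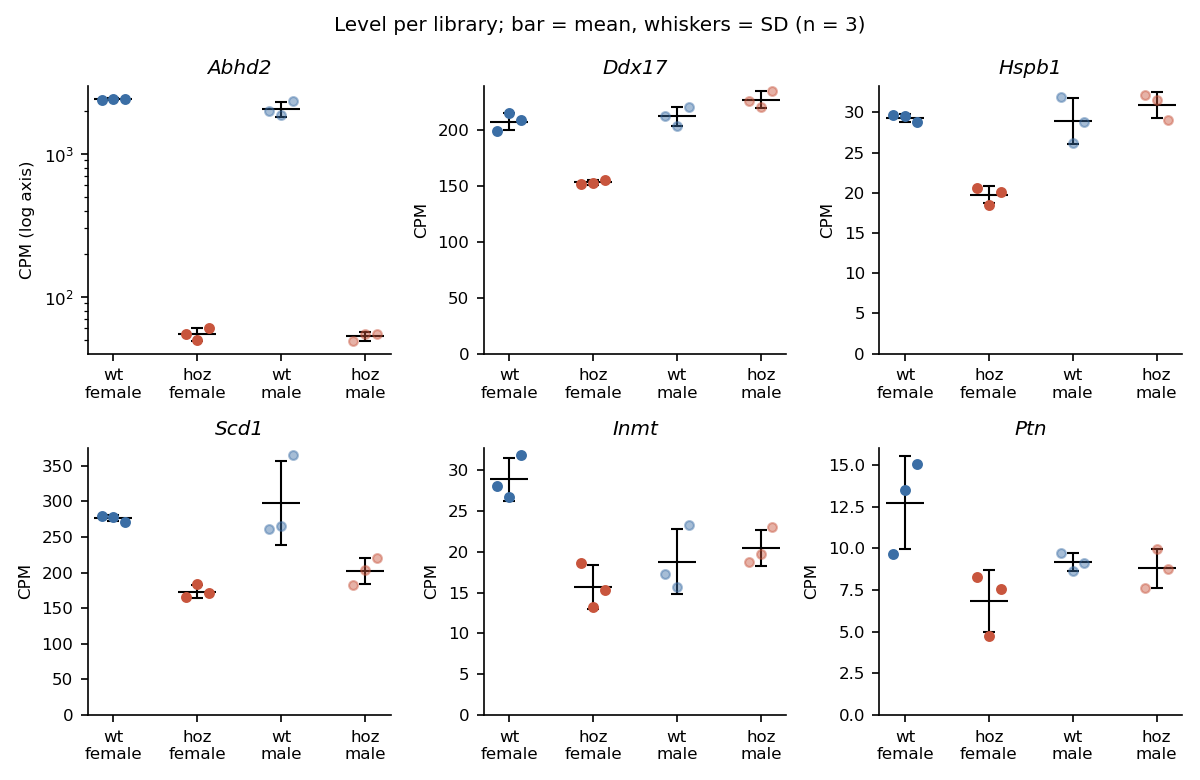
CPM of 6 genes in each library (points), with the group mean and SD (n = 3), in wt and hoz females and, paler, in wt and hoz males. The Abhd2 axis is logarithmic and the others start at 0. All 3 hoz females lie below all 3 wt females in each panel, and for Ddx17 the hoz males lie at 221 to 236 CPM beside 204 to 221 CPM in the wt males.

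Abhd2 and Ddx17 were the 2 genes called of 13857, or 0.0144%. DESeq2's Wald test called 7 (0.0505%), adding Scd1, Inmt, Hspb1, Ptn and Herc3. A fit to the 6 female libraries alone called 39 (23 lower and 16 higher in hoz, 0.304% of 12840), and the authors' deposited table calls 27 (14 higher and 13 lower, 0.128% of 21036). Of these, 19 genes are in both, which is 70.4% of the authors' calls and 48.7% of those from the females alone. All of these compare the same 6 female libraries. The main edgeR fit and DESeq2's Wald test took the spread from all 12 libraries, and the fit to the females alone from those 6. Every hoz library lay above every wt library for 1058 genes (7.64%) and below for 836 (6.03%). An unadjusted p under 0.05 was reached by 523 genes that were higher (3.77%) and 417 that were lower (3.01%). Since the call threshold was passed by Abhd2 and Ddx17 alone in the fit used here, the genes below are given by their values. The 12 higher and the 12 lower genes of smallest p were taken from those with groups that do not overlap, so that separation is a result of the choice. The gene lists were also chosen with earlier results of these data known, and some hold genes named here for their small p. Their shares beside all genes are descriptions and not tests.

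**Figure D2:**
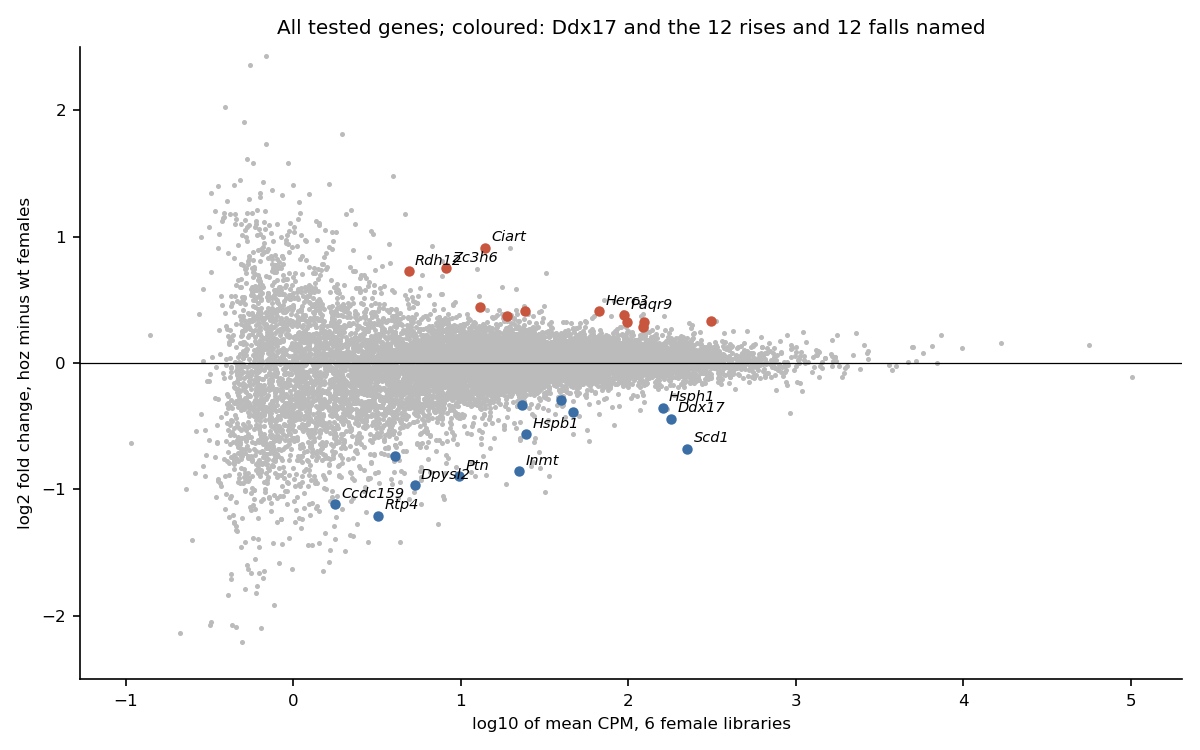
Log2 fold change of hoz over wt females (vertical) against the log10 mean CPM of the 6 female libraries (horizontal) for all genes tested. Coloured points are Ddx17 and the 12 higher and 12 lower genes of smallest p, and 3 genes including Abhd2 lie beyond the plotted range of 2.5 either way. The named genes lie at the edge of the cloud, with Scd1 at -0.68 and Ciart at 0.91.

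Scd1, the stearoyl-CoA desaturase that makes oleic and palmitoleic acid (chromosome 19, 44394451 to 44407709), stood at 279.9, 278 and 271 CPM in the wt females and at 165, 183 and 171 CPM in the hoz females. The gap between the groups was several times the spread within them. The log2 fold change was -0.68 (SE 0.113, edgeR adjusted p = 0.137). With the spread of the females alone, the SE was 0.0589 and the adjusted p 1.60e-07. The larger SE came with male libraries that spread from 261 to 365 CPM in wt. The authors' deposited table gives Scd1 an adjusted p of 2.75e-24. The male effect was -0.55 and the interaction -0.12 (SE 0.157, adjusted p = 1.0), so the females were not shown to differ from the males here. Reads can be shared with the close relative Scd2, which stood at 1176, 1130 and 1046 CPM in wt and at 962, 1015 and 1032 CPM in hoz females (log2 fold change -0.16, SE 0.0922). Of 34 tested genes of fatty acid synthesis and desaturation, 5 were lower in every hoz library (14.7%, beside 6.03% of all genes) and 3 higher (8.82%, beside 7.64%), with a median of 0.01. Acsl3, an acyl-CoA synthetase of lipid droplets, had a log2 fold change of -0.29 (SE 0.110), whereas its relative Acsl4, which prefers arachidonic acid, had 0.17 (SE 0.0672). Of 26 genes of cholesterol synthesis and uptake, 3 were lower in every hoz library (11.5%, beside 6.03% of all genes) and 1 higher (3.85%, beside 7.64%). The lower ones were Pmvk (log2 fold change -0.26, SE 0.0851), Mvd (-0.28, SE 0.111) and Dhcr7 (-0.22, SE 0.111), enzymes of the mevalonate and late sterol steps, and the list median was -0.03. Among 28 phospholipase and eicosanoid genes 3 were higher and 3 lower in every hoz library (10.7% each, beside 7.64% and 6.03% of all genes). Enpp2, the secreted lysophospholipase D autotaxin, stood at 56545, 50774 and 53760.0 CPM in wt and 58420.0, 59916 and 59116 CPM in hoz females (0.14, SE 0.0741). Of 21 LXR targets and lipid carriers, 4 were lower (19.0%, beside 6.03%) and 2 higher (9.52%, beside 7.64%) in every hoz library, with a median of -0.06. Nr1h3, which encodes the oxysterol receptor LXR alpha, a known activator of Scd1, stood at 8.53, 8.01 and 7.12 CPM in wt and at 6.93, 5.01 and 4.70 CPM in hoz females (log2 fold change -0.43, SE 0.157, not called). Lrp1, an endocytic receptor for apolipoprotein E, was at 1004, 1022 and 979 CPM in wt and 1202, 1089 and 1272 CPM in hoz females (0.25, SE 0.0846, edgeR adjusted p = 0.587), and is called in the authors' deposited table with an adjusted p of 0.0380.

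Heat shock genes lay lower in the hoz females. Hspb1, the small heat shock protein HSP25, missed the threshold most narrowly of all genes, at 29.7, 29.5 and 28.8 CPM in wt and 20.5, 18.5 and 20.2 CPM in hoz females (log2 fold change -0.56, SE 0.0905, edgeR adjusted p = 0.0528). Hsph1, the nucleotide exchange factor HSP110, had 158, 192 and 188 CPM in wt and 146, 137 and 139 CPM in hoz females (-0.35, SE 0.0816, adjusted p = 0.559). Chordc1, the HSP90 cochaperone morgana, had 52.3, 54.5 and 52.9 CPM in wt and 45.04, 38.2 and 37.8 CPM in hoz females (-0.38, SE 0.0938, adjusted p = 0.559). In each of these genes the groups did not overlap, and in males the log2 fold changes were 0.10, 0.09 and 0.12. Their interactions were -0.66 (SE 0.120, edgeR adjusted p = 0.323), -0.45 (SE 0.113) and -0.50 (SE 0.126), the latter pair with an adjusted p of 1.0. Of the 38 heat shock and chaperone genes tested, 0 were called and 30 had a log2 fold change below 0 (beside 6833 of all 13857). In every hoz library 12 were lower (31.6%, beside 6.03% of all genes) and 2 were higher (5.26%, beside 7.64%). The median was -0.09. Below an unadjusted p of 0.05 there were 9 lower genes of these 38 and 1 higher, Hspb6 (0.28, SE 0.117). Over all genes 3.01% were lower and 3.77% higher at that p. Other members that were lower in every hoz library include the collagen chaperone Serpinh1 (-0.25, SE 0.0693), the steroid receptor cochaperone Fkbp4 (-0.18, SE 0.0608) and the adaptor Stip1 (-0.13, SE 0.0613). Summed over 42 measured members the list stood at 9729 to 10412 CPM in wt and 9352 to 9601 CPM in hoz females. The count of members lower in every hoz library was 12 without wt female 3, 13 without hoz female 2 and 14 without hoz female 3, where 9.91%, 10.7% and 11.7% of all genes were so placed. Genes of a list are read from the same libraries and are not independent.

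The promoters of the 3 leading heat shock genes are shown because each holds the core that heat shock factor binds. Hsph1 has 2 entries, and the one nearest to the deposited start of the gene is shown. They run from 250 bases before to 50 bases after the annotated start, 5′ to 3′ on the gene's strand, from RefSeq (GRCm38.p6). Capitals mark GAANNTTC, where N is any base, a motif that reads the same on both strands. Hspb1 lies at chr5:135887669-135887968 (plus strand), Hsph1 at chr5:149636287-149636586 (minus strand) and Chordc1 at chr9:18292017-18292316 (plus strand).
Hspb1: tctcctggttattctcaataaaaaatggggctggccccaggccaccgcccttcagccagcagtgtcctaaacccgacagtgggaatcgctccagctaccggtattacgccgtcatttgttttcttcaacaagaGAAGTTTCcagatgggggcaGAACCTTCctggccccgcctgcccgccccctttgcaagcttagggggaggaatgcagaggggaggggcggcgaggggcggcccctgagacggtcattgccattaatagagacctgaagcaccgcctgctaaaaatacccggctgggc
Hsph1: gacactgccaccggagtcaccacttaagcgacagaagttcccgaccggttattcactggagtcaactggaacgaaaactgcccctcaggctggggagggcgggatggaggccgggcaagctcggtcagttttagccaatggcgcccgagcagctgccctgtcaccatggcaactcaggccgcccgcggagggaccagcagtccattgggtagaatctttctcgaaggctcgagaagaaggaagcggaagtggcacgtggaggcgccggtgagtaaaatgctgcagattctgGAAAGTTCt
Chordc1: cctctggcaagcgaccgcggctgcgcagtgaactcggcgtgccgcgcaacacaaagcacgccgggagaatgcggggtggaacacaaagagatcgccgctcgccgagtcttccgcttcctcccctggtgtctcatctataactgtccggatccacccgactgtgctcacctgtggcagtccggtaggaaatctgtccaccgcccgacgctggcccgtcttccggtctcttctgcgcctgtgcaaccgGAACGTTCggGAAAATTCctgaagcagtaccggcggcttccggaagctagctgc
Relative to the start, the matches begin at -117 and -97 in Hspb1, at 41 in Hsph1 and at -4 and 6 in Chordc1. RefSeq promoters were matched for 30 of the 38 tested heat shock genes, and 15 of their 39 promoters (38.5%) hold the motif, beside 7.86% of all 32851 promoters. A match is a description of the letters and not a binding site.

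The unfolded protein response, the stress program of the endoplasmic reticulum, gave a mixed picture. Xbp1, its transcription factor, stood at 121, 140.5 and 136 CPM in wt and 116, 95.0 and 95.0 CPM in hoz females (log2 fold change -0.37, SE 0.0981, edgeR adjusted p = 0.559), and the authors' deposited table calls it with an adjusted p of 0.0224. Creld2, a secreted chaperone induced by this program, had -0.45 (SE 0.125) and the chaperone Hspa5, also called BiP, -0.22 (SE 0.0842). Both were lower in every hoz library. Dnajb9, a further target, was higher in every hoz library (0.20, SE 0.0707). Of 27 tested members, 4 were lower (14.8%, beside 6.03%) and 2 higher (7.41%, beside 7.64%) in every hoz library, and the median was -0.04.

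Some clock genes lay higher in the hoz females, most of all in hoz female 3. Ciart, a repressor of the core clock activators, stood at 9.79, 10.7 and 8.39 CPM in wt and at 14.7, 13.8 and 26.4 CPM in hoz females (log2 fold change 0.91, SE 0.218, edgeR adjusted p = 0.559). Without hoz female 3 it was 0.58. Ciart was far lower in the males, with a mean of 1.11 CPM in wt and 1.06 CPM in hoz. The female means were 9.61 CPM in wt and 18.3 CPM in hoz, and every male library lay below every female library. Dbp, an output transcription factor of the clock, had 80.4, 84.8 and 74.2 CPM in wt and 96.5, 98.1 and 123 CPM in hoz females (0.40, SE 0.204). Nr1d2, the repressor REV-ERB beta, had 166, 158 and 162 CPM in wt and 188, 192 and 206 CPM in hoz females (0.27, SE 0.0971), and Bhlhe41, a repressor of the same loop, had 0.33 (SE 0.112). Of 22 clock genes tested, 0 were called. In every hoz library 8 were higher (36.4%, beside 7.64% of all genes) and 1 was lower (4.55%, beside 6.03%). The median was 0.09, and it was 0.02 without hoz female 3. The count of genes higher in every hoz library was 9 without hoz female 3, where 13.3% of all genes were so placed. The list summed to 1173 to 1228 CPM in wt and to 1281, 1297 and 1499.7 CPM in hoz females 1, 2 and 3. Per1, which responds to hormones as well as to the clock, stood at 130 CPM in hoz female 3 and at 52.8 to 69.5 CPM in the other 5 libraries. All mice were killed near the same hour per the labels' protocols, but the sources used here give no order within it. Whether clock phase was the same across these mice was not tested. Nor was the part of the hour in these values or in the gap between the sexes in Ciart.

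The Ciart promoter is shown since it holds 3 E-boxes, the CACGTG element bound by the clock activators, here in capitals (chr3:95882179-95882478, minus strand, RefSeq, GRCm38.p6).
Ciart: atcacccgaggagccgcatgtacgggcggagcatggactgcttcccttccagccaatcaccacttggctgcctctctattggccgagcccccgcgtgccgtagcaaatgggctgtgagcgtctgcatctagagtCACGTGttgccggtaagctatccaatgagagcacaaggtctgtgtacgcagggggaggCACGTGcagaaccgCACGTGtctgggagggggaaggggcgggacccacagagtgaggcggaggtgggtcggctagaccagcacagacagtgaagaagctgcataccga
The E-boxes begin at -116, -58 and -44 from the start. Among 25 promoters matched to 17 of the tested clock genes, 6 (24%) hold CACGTG, which reads the same on both strands, beside 7.15% of all promoters.

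**Figure D3:**
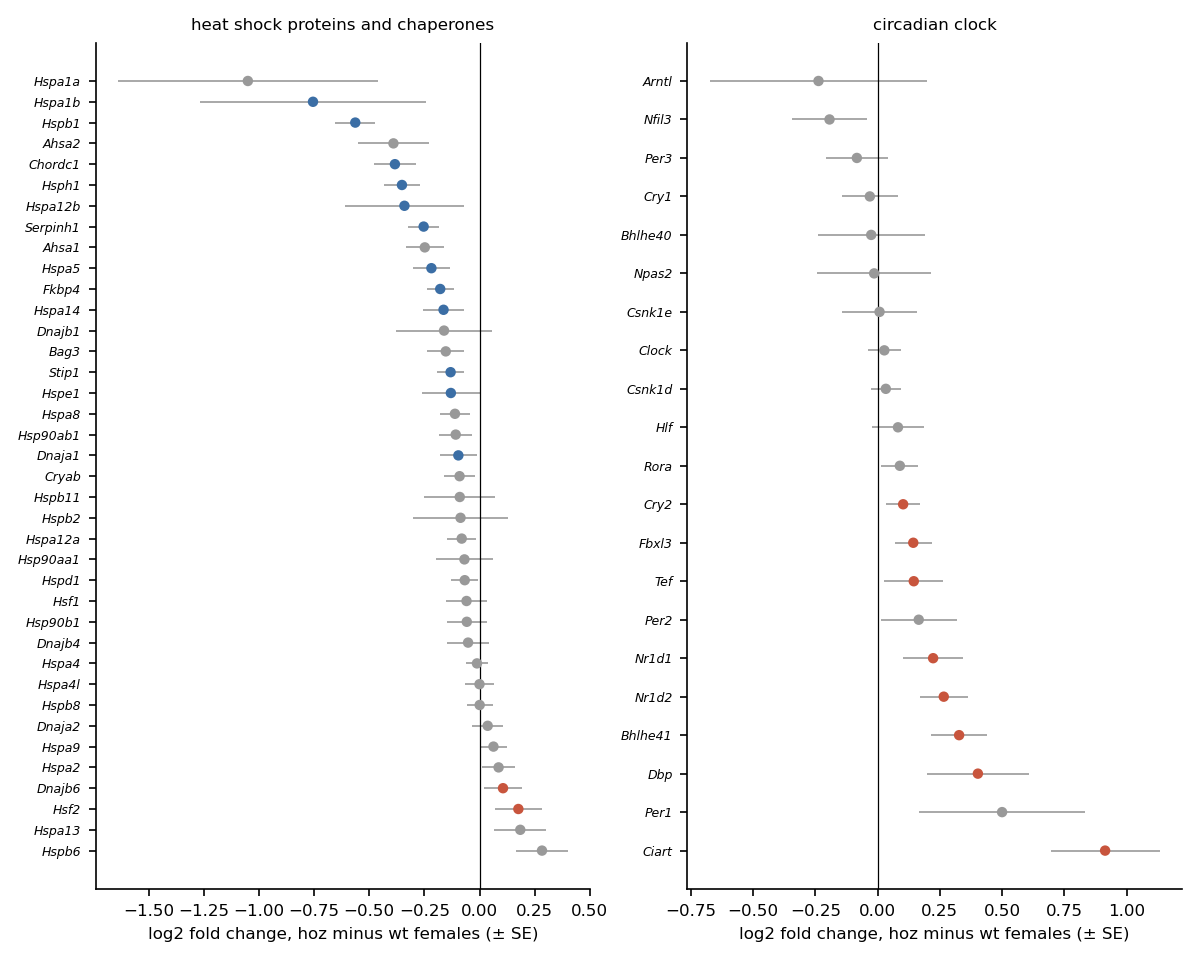
Log2 fold change of hoz over wt females with its SE for tested genes of the heat shock list (left) and the clock list (right), with 1 clock gene not drawn. Blue points are genes lower in every hoz library, red points genes higher in every hoz library, and grey points genes whose groups overlap. Most heat shock genes lie left of 0, and Ciart lies farthest right in the clock list.

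Receptors for progesterone and their partners showed few differences. Pgrmc1, a membrane protein linked to progesterone responses, was the most abundant per length of the list, at 305, 289 and 309 FPKM in wt and 298, 319 and 294 FPKM in hoz females. The nuclear estrogen receptors Esr1 and Esr2 stayed below 0.3 FPKM in each female library. The nuclear progesterone receptor Pgr was the lowest of the list, at 0 to 0.040 FPKM, too low for a difference to be read. Paqr9, a progestin receptor of the PAQR family, stood at 82.2, 87.0 and 77.5 CPM in wt and at 96.3, 107 and 118 CPM in hoz females (log2 fold change 0.38, SE 0.0852, edgeR adjusted p = 0.559), and the authors' deposited table calls it with an adjusted p of 0.0185. Its relative Paqr7 had -0.16 (SE 0.103), with groups that overlap. Of 25 tested genes of the list, 2 were higher (8.0%, beside 7.64% of all genes) and 1, Fkbp4, was lower (4.0%, beside 6.03%) in every hoz library. The median was 0.03.

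Epithelial transport genes leaned to higher values. Trpm3, a calcium-permeable channel gated by the neurosteroid pregnenolone sulfate and very abundant in this tissue, stood at 2161, 1986 and 2173 CPM in wt and at 2430, 2559 and 2456 CPM in hoz females (log2 fold change 0.24, SE 0.0641, edgeR adjusted p = 0.559). The authors' deposited table calls Trpm3 with an adjusted p of 0.00735. The channel kinase Trpm7 had 0.23 (SE 0.0762), the T-type calcium channel Cacna1h 0.35 (SE 0.119) and the polycystin Pkd1 0.16 (SE 0.0581), each higher in every hoz library, while Cacna1g was lower in every one (-1.18, SE 0.408) at 2.76, 3.04 and 5.31 CPM in wt. Of 34 calcium and TRP channel genes, 8 were higher (23.5%, beside 7.64% of all genes) and 1 lower (2.94%, beside 6.03%) in every hoz library. The list median was 0.06, and the sum was 7339 to 7601 CPM in wt and 7925 to 8173 CPM in hoz females. Of 45 genes of ion and water transport, 9 were higher in every hoz library (20.0%, beside 7.64% of all genes) and 2 lower (4.44%, beside 6.03%), with a median of 0.07. The higher ones include the iodide carrier Slc5a5 (0.26, SE 0.0880), the potassium chloride cotransporter Slc12a4 (0.17, SE 0.0584), the organic anion carrier Slc22a8 (0.18, SE 0.0665) and Slc12a2, the NKCC1 cotransporter of cerebrospinal fluid secretion (0.17, SE 0.0703). Slc12a2 was read at 1154, 1019 and 1094 CPM in wt and 1189, 1314 and 1158 CPM in hoz females, so that the groups were separated by 4 CPM. No gene of either list was called. Of 36 epithelial marker genes, 7 were higher in every hoz library (19.4%, beside 7.64% of all genes) and 4 lower (11.1%, beside 6.03%). The higher ones include coagulation factor F5 (0.22, SE 0.0709) and angiotensin converting enzyme Ace (0.14, SE 0.0607), and the lower ones the chemokine Rarres2 (-0.74, SE 0.184). Motile cilia genes had a median of 0.02. Of 54, 5 were higher (9.26%, beside 7.64% of all genes) and 1 lower (1.85%, beside 6.03%) in every hoz library.

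Ubiquitin ligases of the HECT and HERC type followed the same direction. Herc3 stood at 61.0, 54.8 and 55.7 CPM in wt and at 69.5, 81.2 and 77.7 CPM in hoz females (log2 fold change 0.41, SE 0.0843, edgeR adjusted p = 0.368). It overlaps Nap1l5 on the opposite strand. Herc1 had 0.27 (SE 0.0791) and was also higher in every hoz library. Of 23 tested, 7 were higher (30.4%, beside 7.64% of all genes) and 0 lower (beside 6.03%) in every hoz library, with a median of 0.09. The 7 include Herc3, which was named for its small p and its separation. The other genes of smallest p among the higher ones have varied roles. Zc3h6, a zinc finger protein, had 0.75 (SE 0.166), the retinol dehydrogenase Rdh12 0.73 (SE 0.176), the spindle orientation protein Gpsm2 0.37 (SE 0.0882), the myosin motor Myo5a 0.32 (SE 0.0774), the mTOR inhibitor Deptor 0.33 (SE 0.0797), the transcription repressor Zbtb20 0.33 (SE 0.0837) and the oxysterol binding protein Osbp 0.29 (SE 0.0735). Chpf2, an enzyme of chondroitin synthesis, had 0.41 (SE 0.0990) and Amdhd2, of amino sugar metabolism, 0.45 (SE 0.110), and none of these was called by edgeR.

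Long genes were more often higher in the hoz females than short ones. The deposited length had a median of 4131 bases among the genes higher in every hoz library, 2801 bases among those lower in every one and 3142 bases over all genes tested. Genes were split by length into 4 classes of about equal size. In the longest class 12.9% were higher and 4.82% lower in every hoz library, and in the shortest class 4.29% were higher and 7.46% lower. The median log2 fold change went from -0.03 in the shortest to 0.03 in the longest class. Median lengths were 5980 bases in the calcium and TRP channel list, 5499 in the HECT and HERC list, 3823 in the transport list, 4105 in the clock list and 2613 in the heat shock list. The 12 named higher genes had a median of 4824 bases and the 12 lower ones 1559. The part of length, or of RNA quality, in these list values was not tested.

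**Figure D4:**
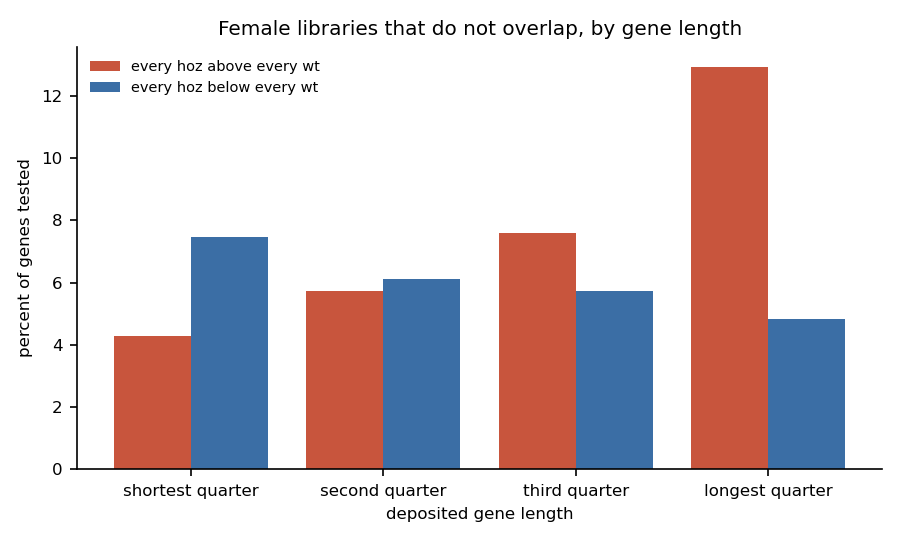
Percent of tested genes whose 3 hoz females lie all above (red) or all below (blue) the 3 wt females, in 4 classes of the deposited gene length. Red bars grow from 4.29% to 12.9% and blue bars shrink from 7.46% to 4.82% from the shortest to the longest class.

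Cirbp, the cold-inducible RNA binding protein, stood at 31.0, 24.5 and 25.04 CPM in wt and at 37.9, 36.1 and 33.9 CPM in hoz females (log2 fold change 0.45, SE 0.118, edgeR adjusted p = 0.559). Of 50 splicing genes, 7 were higher in every hoz library (14.0%, beside 7.64% of all genes) and 3 lower (6.0%, beside 6.03%). The higher ones include Rbm25 (0.21, SE 0.0769) and the lower ones the kinase Clk2 (-0.34, SE 0.131). The list median was 0.00013. All 12 mitochondrially encoded genes tested had a log2 fold change above 0 (beside 50.7% of all genes), with a median of 0.15. In every hoz library 4 were higher (33.3%, beside 7.64% of all genes) and 0 lower (beside 6.03%). Summed over 13 genes they stood at 53991, 47286 and 49179 CPM in wt and at 56450.0, 56994 and 52861 CPM in hoz females, so the sums overlap.

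Interferon-stimulated genes lay lower in the hoz females. Rtp4, a chaperone of membrane receptors induced by interferon, stood at 4.27, 3.57 and 5.72 CPM in wt and at 2.21, 2.23 and 1.34 CPM in hoz females (log2 fold change -1.21, SE 0.266, edgeR adjusted p = 0.494). In males Rtp4 had 2.45, 1.68 and 2.14 CPM in wt and 1.86, 2.79 and 2.82 CPM in hoz, so every wt female lay above every male library. Iigp1, an immunity GTPase, had -1.28 (SE 0.333), the peptide transporter Tap1 -0.45 (SE 0.128) and the guanylate binding protein Gbp7 -0.75 (SE 0.222), each lower in every hoz library. Of 41 tested genes, 0 were called. In every hoz library 14 were lower (34.1%, beside 6.03% of all genes) and 1 higher (2.44%, beside 7.64%). The median was -0.49. Without wt female 3, which had the highest values, it was -0.30 with 15 genes lower in every hoz library, where 9.91% of all genes were so placed. The list median in each library, on the log2(CPM + 0.5) scale against the mean of the wt females, was -0.21, -0.04 and 0.30 in wt and -0.36, -0.38 and -0.40 in hoz females.

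Markers of other cells stood with the interferon genes in some libraries and apart from them in others. Endothelium genes had -0.24, -0.08 and 0.31 in wt females 1 to 3, near the interferon values. In hoz female 2, where the interferon list had -0.38, endothelium genes had -0.75 and macrophage genes -0.74. Where the interferon list had -0.36 in hoz female 1, macrophage genes had 0.08, and where it had -0.40 in hoz female 3, endothelium genes had 0.21. The macrophage and microglia list summed to 189.8 to 229 CPM in wt and to 219, 130.0 and 159 CPM in hoz females 1, 2 and 3. Its defining markers Csf1r and C1qa were above 0 in each library. Of its 33 genes, 31 had a log2 fold change below 0 (median -0.42), beside 6833 of all 13857 tested. In every hoz library 2 of the 33 were lower (6.06%, beside 6.03% of all genes). MHC class II genes had a median of -0.72 over 6 genes, but none separated the groups: Cd74 stood at 26.2, 31.7 and 52.8 CPM in wt and at 39.7, 11.7 and 12.4 CPM in hoz females. Without wt female 3 and hoz female 2 together the medians were -0.18 for macrophages, -0.06 for MHC class II and -0.25 for interferon response. The endothelium list overlapped between groups (459 to 580.3 CPM in wt and 389.6 to 593.9 CPM in hoz females) and its median moved from -0.31 to 0.04 when both libraries were left out. Mural cell genes summed to 432 to 482 CPM in wt and 352 to 456 CPM in hoz females. Their median was -0.45, and it was -0.24 without hoz female 2. By library the list median was -0.11, 0.09 and 0.07 in wt and -0.35, -0.95 and 0.02 in hoz females, so hoz female 3 lay within the wt range. In every hoz library 0 of the 22 genes were higher (beside 7.64%) and 6 were lower (27.3%, beside 6.03%). Those of smallest p were the secreted protein Vtn (-0.28, SE 0.0805), the endothelin receptor Ednra (-1.76, SE 0.691), Ndufa4l2 and the potassium channel Kcnj8, the latter 3 at or below 2 CPM in every female library. Neuron genes had a median of 0.50 over 30 genes, and it was 0.08 without hoz female 1, whose own list median of 0.62 was the highest. The part of cell composition in the interferon values was not tested.

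**Figure D5:**
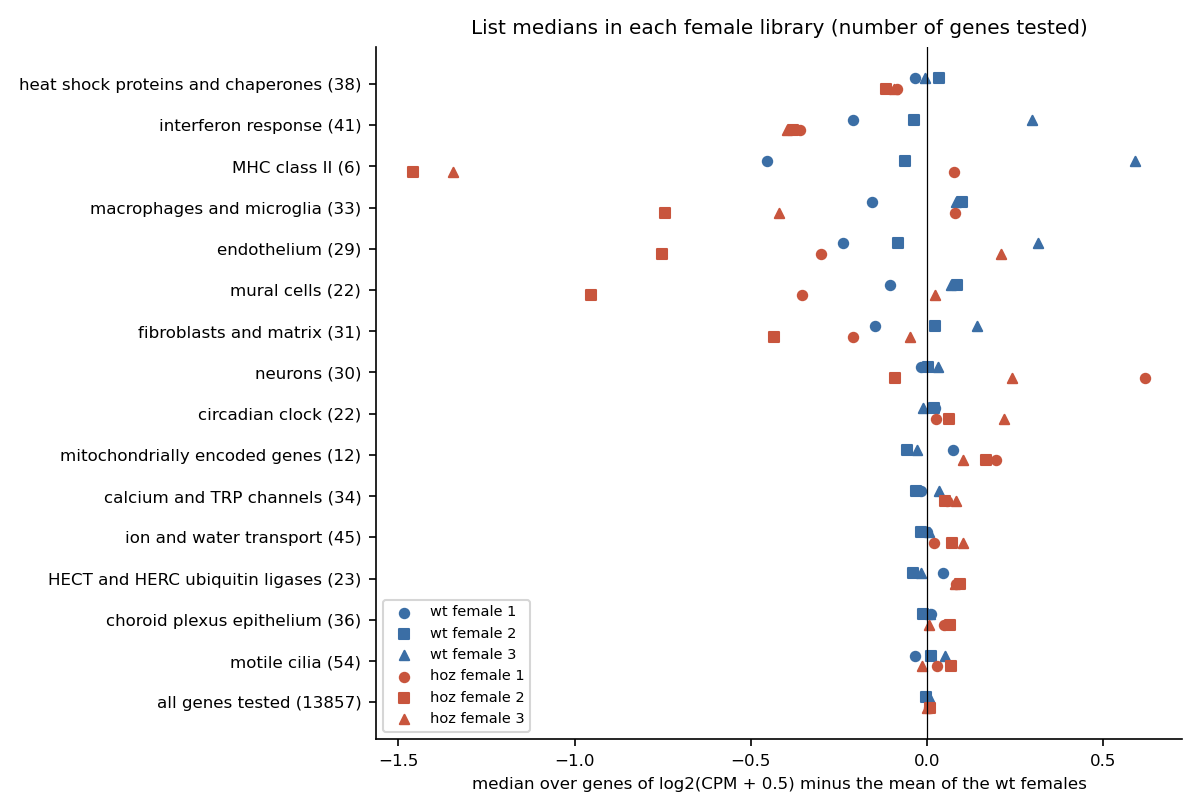
Median over the tested genes of each list of log2(CPM + 0.5) minus the mean of the wt females, in each of the 6 female libraries (blue wt, red hoz, marker shape for the library). The hoz libraries lie left of all wt libraries for heat shock and interferon genes, while in MHC class II and macrophages hoz female 1 lies among the wt libraries and in endothelium hoz female 3 does.

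Several genes of low level, some of them stromal, separated the female groups although the fit over all libraries did not call them. Inmt, which methylates indoleamines, stood at 28.1, 26.7 and 31.8 CPM in wt and at 18.6, 13.2 and 15.3 CPM in hoz females (log2 fold change -0.85, SE 0.160, edgeR adjusted p = 0.283). Ptn, the growth factor pleiotrophin, had 9.66, 13.5 and 15.04 CPM in wt and 8.25, 4.74 and 7.56 CPM in hoz females (-0.89, SE 0.188, adjusted p = 0.459). Itga8, an integrin of mesenchymal cells, had 10.7, 11.2 and 10.4 CPM in wt and 5.67, 3.20 and 6.21 CPM in hoz females (-1.08, SE 0.702, adjusted p = 0.810). The wide error of Itga8 came with male libraries that ranged from 6.02 to 20.6 CPM within both genotypes. Moxd1, a monooxygenase, behaved alike, with 16.4, 18.7 and 19.4 CPM in wt and 9.32, 7.24 and 14.1 CPM in hoz females and an SE of 0.578. The authors' deposited table calls Inmt, Itga8, Moxd1 and Ptn with adjusted p of 1.56e-05, 0.00522, 0.00678 and 0.0446. The fit to the females alone called Itga8 (adjusted p = 0.00371, edgeR), Moxd1 (0.0238), and, chosen for mention after their values were seen, the dipeptidase Dpep1 (log2 fold change in that fit -1.43), the complement inhibitor Serping1 (-0.67), the retinoic acid binder Crabp1 (-1.64), the mesenchymal transcription factor Tcf21 (-1.43), the carboxypeptidase-like Cpxm1 (-0.82), the matrix protein Fstl1 (-0.61) and the pericyte receptor Pdgfrb (-0.80). Each of these 7 was lower in every hoz library, but they were taken from calls on these same libraries, so the separation is no further evidence. Beside them, the fibroblast and matrix list summed to 2625 to 2945 CPM in wt and to 2600.1 to 2780.3 CPM in hoz females, with 7 of 31 genes lower (22.6%, beside 6.03% of all genes) and 3 higher (9.68%, beside 7.64%) in every hoz library. Lum, a matrix proteoglycan, had -0.64 (SE 0.178) and the receptor Pdgfra of fibroblasts 0.49 (SE 0.155) at 72.5, 60.8 and 70.7 CPM in wt and 85.7, 84.3 and 120 CPM in hoz females. In hoz female 2 the fibroblast list median was lowest, at -0.43. In the males, the same 7 genes were highest in wt male 3 and hoz male 2, so that the male groups overlapped. Pdgfrb had 7.18, 4.91 and 24.4 CPM in wt and 7.79, 21.5 and 7.10 CPM in hoz males. The part of stromal content in these genes was not tested.

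On the higher side, the authors' deposited table also calls Tfrc, the transferrin receptor of iron uptake, with an adjusted p of 0.000213. Tfrc stood at 16.7, 9.79 and 14.8 CPM in wt and at 27.0, 24.4 and 24.7 CPM in hoz females, a log2 fold change of 0.91 (SE 0.320, edgeR adjusted p = 0.631), while males ranged from 25.05 to 40.4 CPM in wt and from 29.7 to 60.4 CPM in hoz. Fat1, a large protocadherin, had 287, 286 and 312 CPM in wt and 385, 346 and 385 CPM in hoz females (0.33, SE 0.0921, adjusted p = 0.559), and the authors' deposited table gives an adjusted p of 0.000556. Both genes separated the female groups, as did all 27 genes of the authors' calls, which come from the same female libraries. The remaining lower genes of smallest p were Morn2 (-0.30, SE 0.0683), the splicing factor subunit Phf5a (-0.33, SE 0.0825), Ccdc159 (-1.12, SE 0.279) and Dpysl2, a protein of growing axons (-0.97, SE 0.239). Dpysl2 lay at 6.90, 7.21 and 6.84 CPM in wt and at 3.40, 2.51 and 5.04 CPM in hoz females. Among 42 tested growth factors and their binding proteins, 10 were lower (23.8%, beside 6.03% of all genes) and 6 higher (14.3%, beside 7.64%) in every hoz library, with Tgfb1 at -0.66 (SE 0.249) and Bmp2 at 0.54 (SE 0.177).

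Genes beside Abhd2 on chromosome 7 were described by position, since a knockout allele can carry flanking DNA of another source. Of 115 genes that start within 5 Mb of the start of Abhd2, 67 were tested and 0 were called. In hoz, 5 were higher in every library (7.46%) and 6 lower (8.96%), beside 62 (6.36%) and 65 (6.67%) of 975 genes on the rest of the chromosome. The median was 0.02 near Abhd2. The genes of smallest p were Gdpgp1, a phosphorylase that starts 959.7 kb away (4.27, 4.76 and 4.51 CPM in wt and 5.48, 7.24 and 6.55 CPM in hoz females, log2 fold change 0.48, SE 0.157), Whamm, an actin nucleation factor (-0.25, SE 0.101), the ubiquitin adaptor Klhl25 (-0.25, SE 0.109) and Hdgfrp3 (0.23, SE 0.104).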

How the data were processed

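Lateral choroid plexus mRNA of 12 libraries (3 each of wt and hoz females and males) was sequenced as paired reads of 100 bases, per the labels' protocols. The deposited table holds raw read counts per gene (whole numbers throughout), FPKM, and, per the file headers, the authors' log2 fold change, p-value and adjusted p-value for hoz over wt females, with their group means as a normalized signal, which was not used. The deposited FPKM equal the read count over the deposited gene length and the summed reads: over 218198 values above 0, none deviated by more than 4.97e-12 of its size. Per the submitters' processing notes the build was mm10. Those notes name HTSeq 0.6.1, STAR 2.5, edgeR 3.16.5, DESeq2, TopHat, STAR-Fusion and CASAVA without roles. The sources used here do not say whether counting used strand, so reads of genes overlapping on opposite strands may be shared.

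Counts were tested in R 4.3.3 with edgeR 4.0.16 (filterByExpr by group, TMM, robust quasi-likelihood fit of 4 group means over 12 libraries, 8 residual degrees of freedom), two-sided, with Benjamini-Hochberg adjustment over 13857 genes and calls at an adjusted p under 0.05. The common biological coefficient of variation was 0.0870. SE is the size of the log2 fold change over the square root of F. The fit was tested on simulated data. Alternatives used DESeq2 1.42.0, limma 3.58.1, no filter, the females alone, and omitted libraries. All 6 pairs of libraries within the female groups differed by more than sampling noise, the chi-square divided by the number of genes (those with at least 10 reads) being 2.99 to 5.58.

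Members, lists and the naming rule were chosen with earlier results of these data known. Named are Abhd2, called genes, the 12 higher and 12 lower genes of smallest p whose groups do not overlap (mean of 1 CPM or more in one group), the 10 smallest adjusted p of the authors' calls, and up to 4 members per list of smallest p. Other genes named, such as Per1, Dbp, Slc12a2, Cd74, Scd2, Stip1, Hspb6, Pgrmc1 and Kdelr3, were chosen after their values were seen. Some genes that the rule names are not reported here. Promoters came from RefSeq (GRCm38.p6). Tables and figures used Python 3.11.15 with pandas 2.3.3 and matplotlib 3.10.9.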

Additional observations from a re-analysis of the deposited data

Results flagged for a closer look

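Ddx17 differed between the sexes in its response to genotype. The female effect minus the male effect was -0.54 on the log2 scale (SE 0.0783, edgeR adjusted p = 0.0490), with all 3 hoz females below all 3 wt females. It was the 1 gene for which the difference itself passed the test. The adjusted p was 0.0513 with DESeq2 size factors, 0.00597 without the filter on low counts, 0.0104 with limma voom and sample weights and 1.13e-07 with DESeq2's Wald test. Without any 1 female library the call was lost, with edgeR adjusted p of 0.104 to 0.360 and values of -0.56 to -0.51, and without wt female 3 and hoz female 2 together the adjusted p was 1.0.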

How the results depend on the processing

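All 12 alternatives kept the direction of each of the 30 named genes, and Abhd2 was called in all 12. The count of genes called between hoz and wt females was 2, and it was 6 without a filter on low counts, 7 by DESeq2's Wald test, 39 from the females alone, 1 to 3 with 1 female library left out and 1 without wt female 3 and hoz female 2 together. The interaction count was 1, and it was 0 with DESeq2 size factors, 2 without a filter, 3 by DESeq2's Wald test, 0 with any 1 female library left out and 0 without wt female 3 and hoz female 2 together. Over 360 values of named genes, 26 passed the threshold that the main value missed and 4 missed one that it passed, all of these Ddx17. Of 420 list medians under alternatives, 48 moved by more than the spread between libraries. The median near Abhd2 ranged from -0.020 to 0.028 with 1 library left out. The cause of these moves was not tested. Depth limits low genes most in hoz female 3, where 3 reads are 0.504 CPM. No paired analysis was possible because the labels carry no replicate numbers or litters that link libraries across groups.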

Other observations

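Hoz female 3 stood apart in genes known from other work as targets of the glucocorticoid receptor, chosen here after their values were seen. Fkbp5, a cochaperone that limits that receptor, stood at 22.0 CPM in hoz female 3 and at 9.51 to 11.9 CPM in the other 5 female libraries. Zbtb16, a zinc finger transcription factor, stood at 4.20 CPM beside 0.590 to 1.004 CPM. Sgk1, a kinase that regulates ion transport, stood at 649 CPM beside 440.2 to 532 CPM, and Tsc22d3, also called GILZ, at 33.6 CPM beside 18.1 to 28.3 CPM. These 4 genes overlapped between the hoz and wt groups, and none was called by edgeR. The same library held the highest values of the clock genes Ciart, Dbp and Per1, and how these values relate was not tested.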
